A study of Mus musculus with 34 samples.

Results

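Macrophages from the colon of antibiotic-treated littermate mice were compared with macrophages of untreated CX control mice. The comparison uses the 3 libraries titled IL10R_littermate_abx (here littermate_abx_490, littermate_abx_491 and littermate_abx_496) and the 2 libraries titled CX (numbered 1 and 3), so 5 of the 18 libraries in 1 deposited table and 5 of the 34 samples of the series. The groups were chosen by their titles, without use of any measured value, and every gene with a name was kept. All 5 libraries come from C57BL/6 mice aged 6 to 7 weeks. Lamina propria cells of the colon were sorted as CD45+, CD11b+, CD64+ cells with intermediate CD11c and without Ly6c or CD103, and 10000 to 100000 cells were lysed per library. The littermate_abx mice had antibiotics in their drinking water, and the agents are not named in the labels. CX mice are labelled as untreated. The series title concerns gut macrophages without the IL-10 receptor alpha chain, but the genotype of the littermates, the meaning of CX and whether each library is a separate animal are not stated. The p-values therefore reflect only how libraries vary within the 5 groups of the table, all 18 of which enter the fit, and this may be technical. Antibiotics, the origin of the mice and any difference in preparation cannot be told apart in this comparison.

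Macrophages of the colonic lamina propria take up bacteria and dead cells just under the epithelium and are replaced continually from blood monocytes. Bacterial products reach them through receptors such as the Toll-like receptors, which activate NF-kB and so induce cytokines, chemokines and the inhibitors that end the response. IL-10, acting through its receptor and STAT3, restrains that programme and is known to be needed for tolerance of the gut flora. Antibiotics in the drinking water reduce the bacteria that feed these signals. The epithelium beside the macrophages includes goblet cells, which secrete the mucus layer.

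Each value is a read number divided by its library's scaling factor, here called a normalized value. Whole reads of the listed genes came to 1418724 and 2497055 in CX 1 and 3 and to 1536824, 1161586 and 1521543 in littermate_abx_490, _491 and _496. The CX libraries correlated with each other at a Pearson r of 0.962 across genes. Each littermate_abx library correlated with a CX library at only 0.774 to 0.832, and with the antibiotic-treated Il10ra-deficient libraries of the same table (titled IL10R_abx) at 0.848 to 0.964. On the first principal component of the 18 libraries, which held 65.8% of the variance, CX lay at -9.75 and -11.2 and littermate_abx at 57.6, 44.3 and 57.2.

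The labels were checked on the receptor and on macrophage markers. In the order CX 1, CX 3, then littermate_abx_490, _491 and _496, which is kept throughout, Il10ra, the IL-10 receptor alpha chain, had normalized values of 248 and 284 in CX and 145, 191 and 138 in littermate_abx. All 3 treated libraries lay below both CX libraries, but the change of -0.76 (SE 0.68, limma adjusted p = 0.42) did not pass the test. Il10ra did pass, as lower, in a fit of these 2 groups alone (limma adjusted p = 0.00763). The main fit takes its spread from all 18 libraries of the table, including the Il10ra-deficient ones, and the fit of 2 groups takes it from these 5. Both groups lay far above the Il10ra-deficient libraries, where the median was 11.3 without and 5.20 with antibiotics. Cx3cr1, the fractalkine receptor of gut macrophages, had 541 and 578 in CX and 1082, 949 and 959 in littermate_abx. Those groups did not overlap either, and the difference of 0.83 (SE 0.39, limma adjusted p = 0.113) did not pass, though it did in the fit of these 2 groups alone (limma adjusted p = 0.00206). Csf1r, the receptor for the macrophage growth factor CSF-1, had 2796 and 2971 in CX and 4741, 4666 and 5179 in littermate_abx, with every treated library above both controls. Its change was 0.75 (SE 0.25, limma adjusted p = 0.0252). That call was lost without CX 1, CX 3, littermate_abx_490 or littermate_abx_496 and under total-count or quantile scaling (limma adjusted p = 0.0509 to 0.135). All 5 libraries carried macrophage transcripts. Genes were named by a rule given with the processing, and list members for which a change alone is printed were named after their values were seen.

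RNA that the CD45+ gate should leave out was also present. The summed reads of 35 colonic epithelial markers (37 listed, without Reg3b and Reg3g) made up 3.54% and 3.24% of the reads in CX and 0.571%, 0.734% and 0.521% in littermate_abx. The CX libraries were several times higher than every treated library, and none of the defining markers Epcam, Krt8, Vil1 and Muc2 was at 0 in any of the 5. In bulk RNA, fewer cells of a type and less RNA per cell cannot be told apart. The share of epithelial reads separated treated from untreated libraries as cleanly as the groups themselves do, so it moves with every result below in which the groups do not overlap. With a score of 33 epithelial markers added to the fit, an alternative chosen after seeing the data, 139 genes were called in place of 2250 (101 higher and 38 lower, 89 of them also called without the score). The score multiplied the variance of the comparison by 10.2 because it nearly repeats the grouping. Among the named genes called without it, the direction of Csf1r, Ang4, Clca1, Mptx1, Muc2, Ifitm3, Gbp2b, Iigp1, Aldoa, Tubb5, S100a6, Sdc1, Col1a1 and Gp1bb turned with it. Of those not called, Il10ra, Cx3cr1 and Il1b also changed sign, as did Reg3b, which had at most 6 reads in any of the 5 libraries. The part of epithelial RNA in each result was not tested beyond this.

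**Figure D1:**
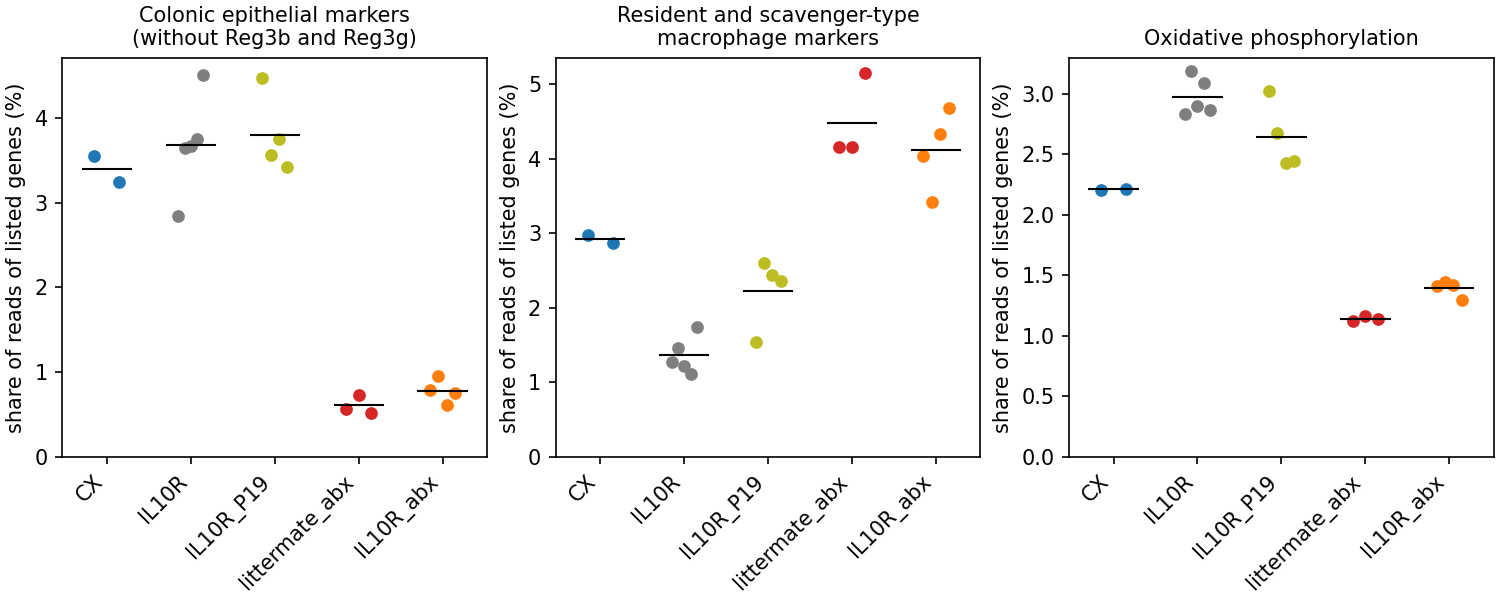
Share of the reads of listed genes (percent, vertical axes) in 3 gene lists, with 1 point per library, the 5 groups of the table side by side and a horizontal line at each group mean. Epithelial markers stood at 3.24% and 3.54% in CX and at 0.521% to 0.734% in littermate_abx, and oxidative phosphorylation genes at 2.20% and 2.22% against 1.12% to 1.16%.

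Of 6612 tested genes, 2250 differed between littermate_abx and CX at a limma adjusted p under 0.05 (34.0% of those tested). Of these, 1094 were higher in littermate_abx (16.5%) and 1156 were lower (17.5%). These 2 shares are the background for the list counts below. At least a 2-fold difference was seen for 482 higher and 709 lower genes. The median log2 change of all tested genes was 0.04, where a log2 change of 1 is a 2-fold difference. The division into higher and lower depends on the scaling. Total-count scaling moved the median change by -0.13 and gave 775 higher and 1420 lower genes, so 35.3% of the calls were higher in place of 48.6%. The count also rests on having both controls: 1325 genes were called without CX 1 and 1443 without CX 3, while leaving out 1 treated library left 1755 to 2058.

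Scavenger and resident-macrophage genes led the higher genes. Cd163, the scavenger receptor for haemoglobin-haptoglobin complexes, had normalized values of 54.9 and 72.9 in CX and 689.7, 473 and 1225 in littermate_abx. littermate_abx_496 was the highest and all treated libraries lay far above both controls, which is 3.52 (SE 0.51, limma adjusted p = 6.94e-05) on the log2 scale. Lyve1, a hyaluronan receptor of perivascular macrophages and lymphatic vessels, had 78.7 and 58.6 in CX and 597, 539 and 1417 in littermate_abx. Its lowest treated library was again several times the higher control, and the change was 3.48 (SE 0.48, limma adjusted p = 5.22e-05). Fcna, which encodes the complement lectin ficolin A, had 75.6 and 75.7 in CX and 586, 535 and 1099 in littermate_abx, and changed by 3.20 (SE 0.83, limma adjusted p = 0.00737). Fxyd2, a regulatory subunit of the sodium-potassium pump, had 62.1 and 67.7 in CX and 765, 488 and 781 in littermate_abx. Its groups did not overlap, and the change was 3.33 (SE 0.52, limma adjusted p = 0.000149).

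The remaining genes among the 12 highest were signalling molecules and regulators. Gdf15, a stress-induced member of the TGF-beta family, had 248 and 274 in CX and 2155, 1999 and 1159 in littermate_abx, and littermate_abx_496 was the lowest treated library here, the reverse of Cd163. It changed by 2.71 (SE 0.37, limma adjusted p = 3.89e-05). Ednrb, an endothelin receptor, had 24.9 and 43.8 in CX and 192, 186 and 321 in littermate_abx, with no overlap and a change of 2.73 (SE 0.42, limma adjusted p = 7.5e-05). The AP-1 family factor Batf had 74.6 and 55.8 in CX and 368, 349 and 524 in littermate_abx. Both controls lay well below, and Batf was higher by 2.64 (SE 0.33, limma adjusted p = 1.91e-05). Ppfia4, a liprin-family scaffold protein, had 21.7 and 32.5 in CX and 208, 217 and 157 in littermate_abx, a change of 2.81 (SE 0.37, limma adjusted p = 2.94e-05). Between antibiotic-treated and untreated Il10ra-deficient libraries its change was smaller, 0.61 (SE 0.27, limma adjusted p = 0.0601).

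**Figure D2:**
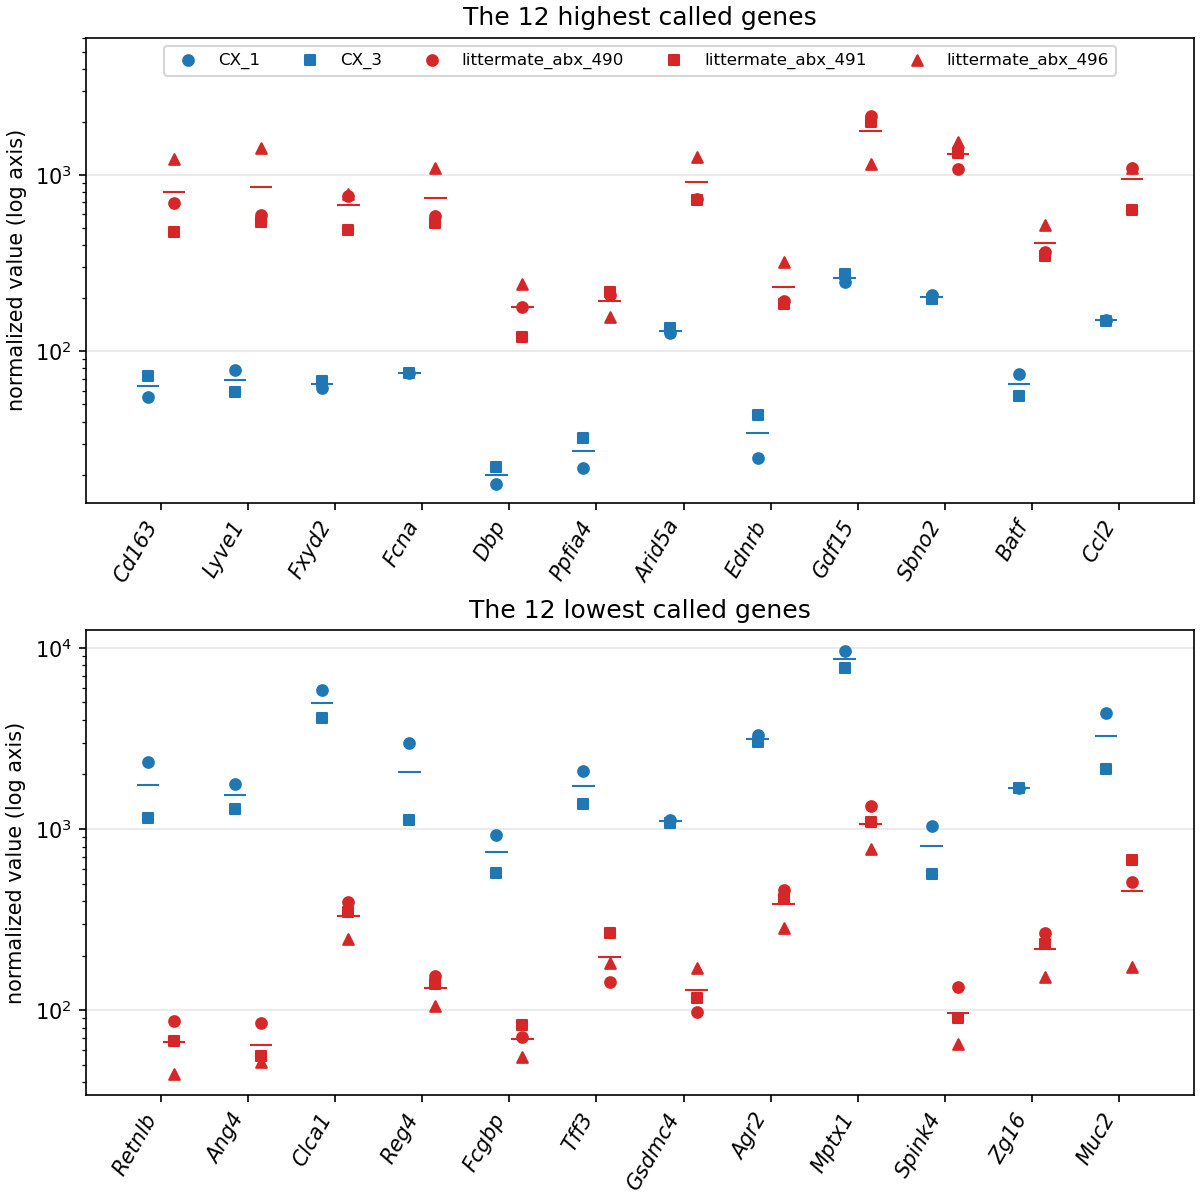
Normalized values (vertical log axes) of the 12 highest and the 12 lowest called genes in the 5 libraries, with 1 point per library, CX to the left and littermate_abx to the right of each gene. In every panel gene the 2 CX points lie apart from the 3 littermate_abx points, as the rule that chose these genes requires; Cd163 stands at 54.9 and 72.9 against 473 to 1225.

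Among 25 core macrophage identity genes tested, 11 were higher in littermate_abx and none lower, with a median log2 change of 0.61. Cd68, a lysosomal glycoprotein of macrophages, had 479 and 532 in CX and 1427, 1233 and 1460.3 in littermate_abx, and all treated libraries lay far above the controls, a change of 1.44 (SE 0.19, limma adjusted p = 2.17e-05). Cd14, the co-receptor for bacterial lipopolysaccharide, had 412 and 424 in CX and 755, 871 and 994 in littermate_abx and changed by 1.05 (SE 0.25, limma adjusted p = 0.00311). Sirpa, which receives the "do not eat" signal of CD47, had 288 and 402 in CX and 742, 619 and 676 in littermate_abx, without overlap. Its change of 0.99 (SE 0.22, limma adjusted p = 0.00165) was lost without CX 1 (limma adjusted p = 0.0549). The complement genes C1qa and C1qc were higher by 0.80 and 0.61, and the F4/80 gene Adgre1 (0.60, limma adjusted p = 0.0521) and the CD64 gene Fcgr1 (0.38, limma adjusted p = 0.4) did not pass. The count of 11 fell to 3 without CX 1, 5 without CX 3 and 6 without littermate_abx_490 or littermate_abx_496, and to 0 with the epithelial score in the fit.

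The 27 tested resident and scavenger-type markers had 16 members higher and none lower, with a median of 1.08. Cbr2, a carbonyl reductase, had 264 and 230.0 in CX and 1098, 1184 and 2079 in littermate_abx, with littermate_abx_496 again the highest. Its change was 2.49 (SE 0.32, limma adjusted p = 2.33e-05). Folr2, a folate receptor, was higher by 2.39 and F13a1, coagulation factor XIII A, by 2.51. Stab1, the scavenger receptor stabilin-1, was higher by 1.88 and the mannose receptor gene Mrc1 by 1.30. Tmem119 (-0.06) and Cd81 (0.12) had overlapping groups and were not called. Without CX 1, and likewise without CX 3, 10 of the 16 were called, and with the epithelial score in the fit 0 were.

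**Figure D3:**
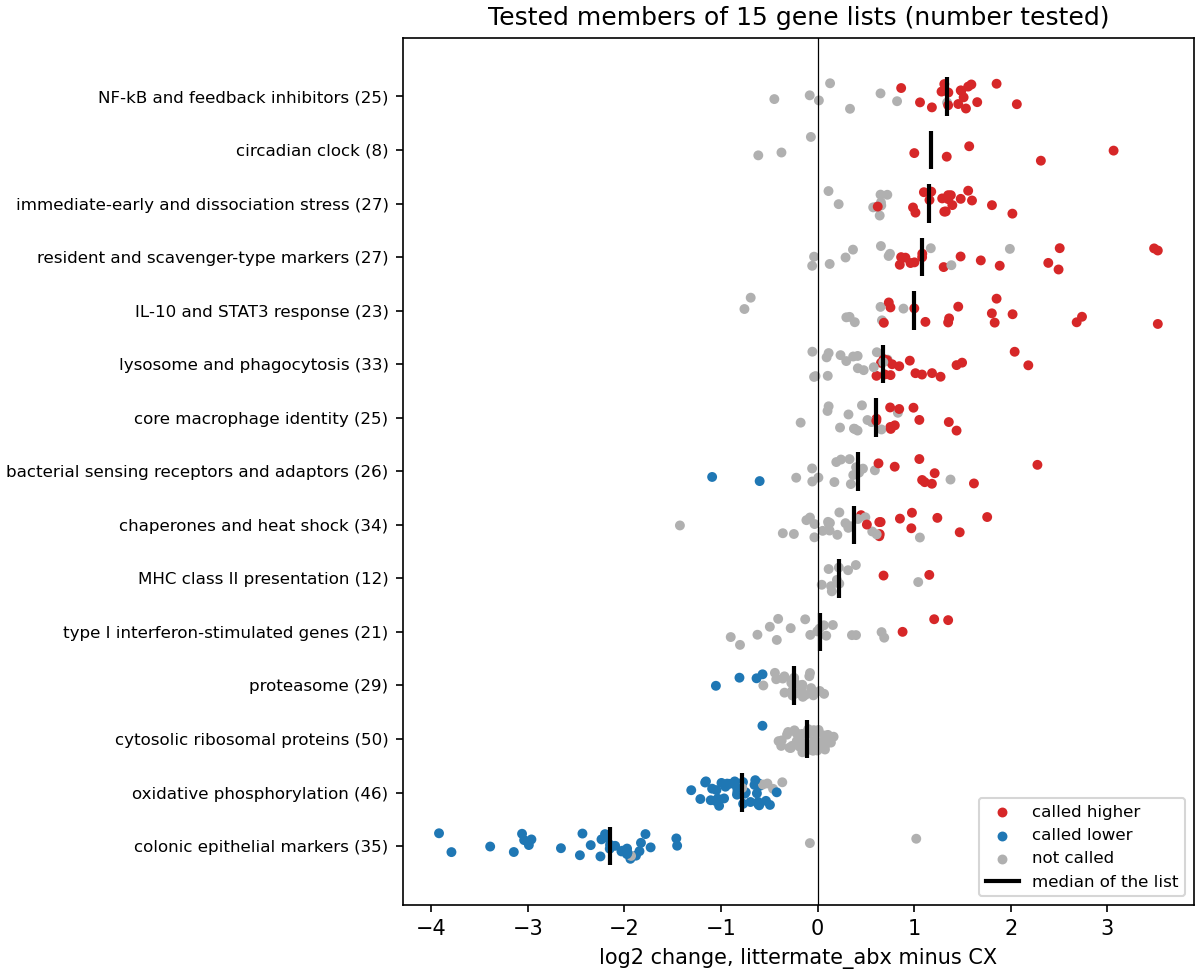
Log2 change between littermate_abx and CX (horizontal axis) for the tested members of 15 gene lists, with 1 point per gene coloured by its call and a bar at the median of the list. NF-kB genes sit to the right at a median of 1.34, oxidative phosphorylation genes to the left at -0.78 and epithelial markers farthest left at -2.15; the position of the interferon and MHC class II medians near 0 changes side with the scaling.

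In the IL-10 and STAT3 list 15 of 23 tested members were higher and none lower, at a median of 1.00, and 9 were called without CX 1. Il10, the cytokine itself, had 59 and 48.4 in CX and 78.5, 59.6 and 61.1 in littermate_abx and differed by 0.30 (SE 0.36, limma adjusted p = 0.561), which did not pass. Stat3 had 331 and 249.9 in CX and 995, 1036 and 989 in littermate_abx, with the 3 treated libraries nearly alike and all above the controls. Its change of 1.80 (SE 0.21, limma adjusted p = 8.08e-06) held in every alternative run. Sbno2, an IL-10-induced repressor of NF-kB target genes, had 208 and 198 in CX and 1084, 1333 and 1541 in littermate_abx, again with wide separation, and changed by 2.68 (SE 0.26, limma adjusted p = 1.3e-06). Etv3, another repressor known to be induced by IL-10, had 180.2 and 163 in CX and 546, 596 and 706 in littermate_abx and changed by 1.83 (SE 0.19, limma adjusted p = 4.04e-06). Arid5a, which binds and stabilises cytokine messages, had 126 and 135 in CX and 733, 725 and 1272 in littermate_abx, and the change was 2.74 (SE 0.34, limma adjusted p = 1.91e-05). With the epithelial score in the fit, 5 of the 23 were called, 4 of them also without it.

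NF-kB subunits and the inhibitors that switch NF-kB off were higher together. Rela, a subunit that activates transcription, had 75.6 and 109 in CX and 315, 237 and 319 in littermate_abx, all treated libraries lying above both controls, and changed by 1.65 (SE 0.24, limma adjusted p = 4.3e-05). Relb, a subunit of the noncanonical branch, had 53.9 and 63.2 in CX and 217, 149 and 174 in littermate_abx and changed by 1.59 (SE 0.23, limma adjusted p = 4.94e-05). Nfkbib, an inhibitor that holds NF-kB in the cytoplasm, had 109 and 109 in CX and 334, 236 and 279 in littermate_abx. Its controls were equal to 3 digits and lay below all treated libraries, a change of 1.35 (SE 0.19, limma adjusted p = 4.29e-05). Among 25 tested members 17 were higher and none lower, with a median of 1.34. Nfkbia, Nfkb2, Icam1, Bcl3 and Nfkbiz were among them, at 1.31, 1.51, 2.06, 1.46 and 1.49. Tnfaip3, the deubiquitinase A20, differed by 0.82 (limma adjusted p = 0.157), and Ptgs2, Socs1 and Tnip1 had overlapping groups. Leaving out any 1 of the 5 libraries gave 13 to 18 called members, and the epithelial score gave 2.

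Promoters are shown for some called STAT3 and NF-kB genes, picked because they held a motif. A further annotated start of Sbno2, not shown, also held the STAT-type motif. Sequences are from RefSeq on build GRCm38.p6, 250 bases ending at the base before the annotated start, written 5′ to 3′ along the gene. Capitals mark a match to TTCNNNGAA, a STAT-type motif, or to an NF-kB-type motif (GGGA, any base, then TTTCC), with both strands searched. The stretches are chr11:117969367-117969616 on the minus strand for Socs3, chr10:80101188-80101437 on the minus strand for Sbno2, chr12:55492648-55492897 on the minus strand for Nfkbia and chr19:46305680-46305929 on the plus strand for Nfkb2.
Socs3: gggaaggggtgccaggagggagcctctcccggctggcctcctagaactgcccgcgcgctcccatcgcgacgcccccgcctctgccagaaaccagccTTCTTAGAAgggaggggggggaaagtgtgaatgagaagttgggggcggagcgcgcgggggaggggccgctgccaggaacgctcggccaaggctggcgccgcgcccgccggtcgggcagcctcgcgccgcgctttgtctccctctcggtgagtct
Sbno2: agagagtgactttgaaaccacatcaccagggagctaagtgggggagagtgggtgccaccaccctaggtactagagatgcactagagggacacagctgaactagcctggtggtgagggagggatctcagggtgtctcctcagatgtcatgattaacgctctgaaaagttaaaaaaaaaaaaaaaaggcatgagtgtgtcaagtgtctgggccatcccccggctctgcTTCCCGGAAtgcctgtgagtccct
Nfkbia: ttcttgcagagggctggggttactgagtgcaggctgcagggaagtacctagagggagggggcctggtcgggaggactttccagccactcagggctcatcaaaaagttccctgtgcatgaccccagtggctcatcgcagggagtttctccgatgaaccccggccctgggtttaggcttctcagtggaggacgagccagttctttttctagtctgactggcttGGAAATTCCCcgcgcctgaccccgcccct
Nfkb2: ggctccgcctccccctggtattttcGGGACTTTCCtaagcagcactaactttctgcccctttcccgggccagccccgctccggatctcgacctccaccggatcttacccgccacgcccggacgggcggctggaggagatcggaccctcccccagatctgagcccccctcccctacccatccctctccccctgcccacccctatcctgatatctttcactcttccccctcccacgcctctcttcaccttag

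Of the 15 called members of the STAT3 list, 13 had a promoter in the table and 4 of those held the STAT-type motif (Sbno2, Socs3, Tnfrsf1b and Zfp36). The motif was in 7.02% of all 32851 promoters and in the promoters of 6.97% of 5151 tested genes. Of the 17 called NF-kB members, 13 were matched and 2 held the NF-kB-type motif (Nfkb2 and Nfkbia), which was in 0.356% of all promoters and 0.427% of tested genes. The STAT-type letters read the same on both strands, so a site counts once. A match describes these letters and is not evidence of binding.

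Immediate-early genes, which respond within minutes to stimulation and also to tissue dissociation, were higher too. Of 27 tested members 18 were higher and none lower, at a median of 1.16, and 10 were called without CX 1. With the epithelial score in the fit 2 were called. Klf2, a transcription factor that dampens macrophage activation, had 201 and 209.5 in CX and 713, 979 and 826 in littermate_abx, without overlap and with littermate_abx_491 highest. Its change was 2.02 (SE 0.28, limma adjusted p = 3.23e-05). Ier3 had 519 and 670.1 in CX and 1713, 1327 and 1966 in littermate_abx and changed by 1.48 (SE 0.25, limma adjusted p = 0.000161), and the AP-1 subunit gene Fosl2 had 93.2 and 142 in CX and 346, 267 and 294 in littermate_abx and changed by 1.38 (SE 0.24, limma adjusted p = 0.00029). Egr1, Junb and Atf3 were higher by 1.39, 1.35 and 1.16. Fos (0.64, limma adjusted p = 0.186) did not pass. How long the cells of each group were handled is not given, and its part in these values was not tested.

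Cytokines did not move as a block. Il1b, which encodes interleukin-1 beta, had 2253 and 1958 in CX and 2787, 2447 and 1274 in littermate_abx. The groups overlapped, since littermate_abx_496 was the lowest of all 5, and the difference was -0.03 (SE 0.40, limma adjusted p = 0.963). Tnf had 185 and 131 in CX and 446, 440.2 and 271 in littermate_abx, with all treated libraries above the controls but a change of 1.27 (SE 0.53, limma adjusted p = 0.0743) that did not pass. Tnf was called as higher in the fit of these 2 groups alone (limma adjusted p = 0.00267) and by DESeq2 (adjusted p = 0.0318). Il18 was lower: it had 113 and 137 in CX and 64, 44.7 and 51.6 in littermate_abx, a change of -1.22 (SE 0.27, limma adjusted p = 0.00187). With the epithelial score in the fit the Il18 change was -0.11, and 0 of the 7 tested cytokines were called. Tnfsf9, the ligand of the co-stimulatory receptor 4-1BB, had 48.7 and 33.6 in CX and 221, 217 and 201 in littermate_abx and changed by 2.37 (SE 0.35, limma adjusted p = 6.01e-05). Osm, which encodes oncostatin M, had 108 and 147 in CX and 409.9, 295 and 227 in littermate_abx, and its change of 1.25 (SE 0.31, limma adjusted p = 0.00417) was lost without CX 1 (limma adjusted p = 0.073). In all, 3 of 7 tested members were higher and 1 lower, and 1 was higher without CX 1. Nos2, the inducible nitric oxide synthase, had at most 3 reads in any of the 5 libraries, so its normalized values of 0 and 0.569 in CX and 3.1, 2.71 and 2.11 in littermate_abx allow no fold.

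Of 18 tested chemokines 3 were higher and none lower, a share near the background of 16.5%. The 2 with the smallest adjusted p, Ccl2 and Ccl7, attract monocytes. Ccl2 had 151 and 149 in CX and 1099, 629.8 and 1101 in littermate_abx. Its controls were nearly equal, every treated library was several times higher, and the change was 2.60 (SE 0.38, limma adjusted p = 6.02e-05). Ccl7 had 113 and 106.5 in CX and 749, 374 and 869 in littermate_abx and changed by 2.50 (SE 0.39, limma adjusted p = 0.000138). In both genes littermate_abx_491 was the lowest of the treated libraries. Cxcl1, which attracts neutrophils, had 70.4 and 30.2 in CX and 311, 134 and 168 in littermate_abx. Its change of 2.03 (SE 0.66, limma adjusted p = 0.0254) was lost without CX 3 (limma adjusted p = 0.227) or littermate_abx_490 (limma adjusted p = 0.0961). Cxcl9 and Cxcl10, which attract T cells, differed by 1.22 (limma adjusted p = 0.216) and -0.64 (limma adjusted p = 0.374), neither of which passed. Without littermate_abx_491, 5 chemokines were called.

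Receptors and adaptors that sense bacteria were mixed, with 9 of 26 tested members higher and 2 lower. Casp4, the murine caspase-11 that binds cytosolic lipopolysaccharide, had 100.5 and 82 in CX and 383, 322 and 704 in littermate_abx. littermate_abx_496 was the highest, the groups lay apart, and the change was 2.27 (SE 0.41, limma adjusted p = 0.000408). Mb21d1, the DNA sensor cGAS, had 34.2 and 30.2 in CX and 77.4, 59.6 and 93.8 in littermate_abx and changed by 1.21 (SE 0.26, limma adjusted p = 0.00127). Pycard, the inflammasome adaptor ASC, was lower: it had 667 and 578 in CX and 272, 303 and 298 in littermate_abx, a change of -1.09 (SE 0.23, limma adjusted p = 0.00108). With the epithelial score in the fit the Pycard change was -0.39, and 0 of the 26 tested members were called. Tlr2, Tlr4 and Nlrp3 were higher by 1.62, 1.08 and 1.11, and Tlr1 was lower by a log2 change of -0.60. Nod1, Naip5, Irak4 and Casp1 had overlapping groups. Without CX 1, 4 members were higher and 2 lower. Without CX 3 those counts were 4 and 1, and without littermate_abx_491 they were 7 and 1.

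Interferon-stimulated genes showed few calls, at or below the background of 16.5%. Of 21 tested type I interferon-stimulated genes 3 were higher (Ifitm3, Oas2 and Stat2) and none lower. Their median of 0.02 turned negative under 2 scalings, down to -0.12. No more than 1 of the 3 calls was left when any 1 of the 5 libraries was left out. Among 21 tested interferon-gamma-inducible genes 2 were higher and 1 lower. Irf1, a transcription factor induced by interferon-gamma and by NF-kB, had 297 and 320.0 in CX and 952, 1215 and 1656 in littermate_abx, with no overlap and a change of 2.01 (SE 0.36, limma adjusted p = 0.000343). Iigp1, an immunity-related GTPase, had 25.9 and 25.6 in CX and 155, 105.6 and 161.2 in littermate_abx. Its change of 2.38 (SE 0.68, limma adjusted p = 0.0128) was lost without CX 1 (limma adjusted p = 0.0665) and CX 3 (limma adjusted p = 0.0645).

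Antigen presentation genes were called at or below the background share. Of 12 tested MHC class II genes 2 were higher, which is near 16.5%, and the class II chains H2-Aa (0.20), H2-Ab1 (0.14) and H2-Eb1 (0.22) had overlapping groups. The median of 0.22 became -0.01 under total-count scaling. The 2 calls, Cd86 and the protease Lgmn, were not stable. No call was made without CX 1 or littermate_abx_490, and 1 call without CX 3, littermate_abx_491 or littermate_abx_496. Of 17 tested MHC class I genes, H2-Q7 was higher and none lower. It had 79.7 and 57.5 in CX and 163, 183 and 156 in littermate_abx, a change of 1.29 (SE 0.40, limma adjusted p = 0.0178) that was lost without CX 3 (limma adjusted p = 0.149), and reads may be shared with near-identical genes of its family. Of 19 tested genes of antimicrobial and oxidative defence, 3 were higher, a share near the background of 16.5%, and 1 without CX 1. Ncf1, a cytosolic subunit of the phagocyte NADPH oxidase, had 224 and 185 in CX and 399.6, 428 and 461 in littermate_abx, without overlap, and changed by 1.07 (SE 0.22, limma adjusted p = 0.000892).

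Circadian clock output genes were among the largest differences. Dbp, a transcription factor whose level cycles strongly through the day, had 17.6 and 22.2 in CX and 178, 121 and 240.2 in littermate_abx. All treated libraries were several times the higher control, and the change was 3.06 (SE 0.43, limma adjusted p = 3.79e-05). Nr1d1, the nuclear receptor REV-ERB alpha of the clock's repressing arm, had 26.9 and 47.3 in CX and 200.3, 131 and 225 in littermate_abx and changed by 2.31 (SE 0.42, limma adjusted p = 0.000408). Per1 had 125 and 153 in CX and 353, 363 and 336 in littermate_abx, with the 3 treated libraries close together, and changed by 1.34 (SE 0.23, limma adjusted p = 0.000232). Tef, a relative of Dbp, and Nfil3, which opposes both, were higher by 1.57 and 1.00. Arntl (-0.38), Clock (-0.61) and Bhlhe40 (-0.07) had overlapping groups and were not called. So 5 of 8 tested members were higher and none lower, and 4 or 5 were called when any 1 of the 5 libraries was left out. With the epithelial score in the fit 1 was called. The hour at which the tissue was taken is not given in the labels, and its part in these values was not tested.

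The promoters of Per1 and Tef are shown because they held an E-box, and E-box elements are the known entry point of the clock. A further annotated start of Tef, not shown, also held an E-box. Capitals mark CACGTG, which reads the same on both strands. The 250 bases are chr11:69098699-69098948 on the plus strand for Per1 and chr15:81802423-81802672 on the plus strand for Tef (RefSeq, GRCm38.p6).
Per1: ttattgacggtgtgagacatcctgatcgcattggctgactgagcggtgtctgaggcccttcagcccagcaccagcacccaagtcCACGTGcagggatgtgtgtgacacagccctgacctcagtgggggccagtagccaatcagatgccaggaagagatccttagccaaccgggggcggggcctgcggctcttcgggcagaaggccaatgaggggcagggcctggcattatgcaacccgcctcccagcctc
Tef: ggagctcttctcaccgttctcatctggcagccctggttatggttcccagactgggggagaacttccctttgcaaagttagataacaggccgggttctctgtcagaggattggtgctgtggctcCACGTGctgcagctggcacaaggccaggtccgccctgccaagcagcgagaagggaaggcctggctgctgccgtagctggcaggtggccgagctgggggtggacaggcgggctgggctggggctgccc
All 5 called clock members had a promoter in the table, and these 2 held the motif. It was in 6.02% of all promoters and in the promoters of 10.9% of tested genes. The D-box TTANGTAA, the element that Dbp and Tef bind, was in 2.06% of promoters and in none of the 5.

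Glucocorticoid-responsive genes overlap this list in Per1. Of 16 tested members 5 were higher and none lower, and 3 were called without CX 1. Tsc22d3, which encodes the glucocorticoid-induced leucine zipper, was higher by 1.14 and the metallothionein gene Mt1 by 1.41. Nr3c1, the glucocorticoid receptor, had 251 and 225 in CX and 416, 414 and 387 in littermate_abx, and its change of 0.77 (SE 0.19, limma adjusted p = 0.00481) was lost without CX 3 (limma adjusted p = 0.0556). Sgk1 (-0.25), Klf9 (0.02) and Fkbp5 (0.97) had overlapping groups. Of 6 tested genes that respond to aryl hydrocarbons, retinoids or butyrate, Rara, Dhrs3 and Tiparp were higher. Rara, a retinoic acid receptor, had 62.1 and 60.3 in CX and 110.5, 123 and 118 in littermate_abx and changed by 0.92 (SE 0.20, limma adjusted p = 0.00166). Without CX 1 only 1 of these 3 was called.

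Lysosomal genes were higher in 17 of 33 tested members and lower in none, at a median of 0.68, and 12 to 16 were called when any 1 library was left out. With the epithelial score in the fit 1 member was called. Gla, the lysosomal alpha-galactosidase, had 78.7 and 83.7 in CX and 358, 343 and 311 in littermate_abx. Its groups were far apart and each was tight, and the change of 2.04 (SE 0.27, limma adjusted p = 2.22e-05) held in every alternative run. Atp6v1a, a catalytic subunit of the proton pump that acidifies lysosomes, had 307 and 248 in CX and 834, 725 and 783 in littermate_abx and changed by 1.49 (SE 0.22, limma adjusted p = 5.32e-05). The protease gene Ctsd was higher by 1.27 and the fatty-acid scavenger receptor gene Cd36 by 2.18. Psap (0.10), Npc2 (0.09) and Ctss (0.11) had overlapping groups.

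Iron and haem genes gave 7 higher of 14 tested and none lower, at a median of 0.69. Hmox1, the haem oxygenase, had 282 and 271 in CX and 913, 1425 and 1085 in littermate_abx, without overlap and with littermate_abx_491 highest, and changed by 2.02 (SE 0.39, limma adjusted p = 0.000692). Slc11a2, an iron transporter, had 44.5 and 59.2 in CX and 124, 123 and 155 in littermate_abx and changed by 1.36 (SE 0.25, limma adjusted p = 0.000452). The ferritin light chain gene Ftl1 was higher by 0.90, and the iron exporter gene Slc40a1 (-0.21) was not called. The count of 7 fell to 4 without CX 1 or littermate_abx_496 and to 3 without CX 3. With the epithelial score in the fit 1 was called and the median was -0.14.

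Enzymes and receptors of lipid mediators were divided, with 5 of 15 tested higher and 2 lower. Alox5ap, the protein that presents arachidonic acid to 5-lipoxygenase, had 182 and 119.6 in CX and 618, 481 and 742 in littermate_abx. All treated libraries lay well above the controls, and it changed by 2.03 (SE 0.32, limma adjusted p = 0.00013). Alox5, the lipoxygenase itself, was higher by 1.98. Ptger4, a prostaglandin E2 receptor, had 88 and 87.1 in CX and 225, 251 and 347 in littermate_abx and changed by 1.61 (SE 0.25, limma adjusted p = 7.98e-05). Ptgs2, the inducible cyclooxygenase, had overlapping groups, and Ptges2 and Pla2g4a were lower by -0.67 and -0.79 on the log2 scale. Without CX 1 the list gave 3 higher and none lower. No lower call was left without CX 3 or littermate_abx_496 either, and 1 was left without littermate_abx_490.

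The sterol and lipid list was divided in the other sense, with 5 of 29 tested members higher and 8 lower. Among all tested genes 16.5% were higher and 17.5% lower, so the share of higher members lay near its background. The lower members named here belong to cholesterol synthesis. Sqle, the squalene epoxidase, had 90.1 and 101 in CX and 60.9, 27.1 and 43.2 in littermate_abx, without overlap, and changed by -1.18 (SE 0.29, limma adjusted p = 0.00378). Fdps, a farnesyl diphosphate synthase, had 156 and 141 in CX and 109, 63.7 and 65.3 in littermate_abx and changed by -0.94 (SE 0.23, limma adjusted p = 0.00392). Cyp51 (-0.20), a sterol demethylase, had overlapping groups. Among the higher members were Cd36, Lpl (0.98) and Plin2 (0.94), genes of lipid uptake and storage. Without CX 1 the counts were 1 higher and 4 lower, without CX 3 they were 2 and 4, without littermate_abx_491 they were 3 and 7, and without littermate_abx_496 they were 3 and 6.

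Genes of oxidative phosphorylation were lower almost throughout. Of 46 tested members 40 were lower and none higher, at a median of -0.78, against 17.5% lower among all tested genes. Atp5j2, a subunit of the mitochondrial ATP synthase, had 1164 and 959.9 in CX and 423, 513 and 489 in littermate_abx. Each treated library was below both controls by a similar step, and the change was -1.16 (SE 0.16, limma adjusted p = 3.82e-05). Cox6b1, of cytochrome c oxidase, had 1252 and 1094 in CX and 598, 614 and 598 in littermate_abx, with the 3 treated libraries nearly equal, and changed by -0.96 (SE 0.16, limma adjusted p = 0.00015). Cox6c, of the same complex, had 500.2 and 446 in CX and 241, 234 and 264 in littermate_abx and changed by -0.94 (SE 0.15, limma adjusted p = 0.000149). Each complex was represented: 12 of 14 complex I, 4 of 4 complex II, 5 of 6 complex III, 8 of 9 complex IV and 11 of 13 ATP synthase members were lower. The summed list held 2.20% and 2.22% of the reads in CX and 1.12%, 1.16% and 1.14% in littermate_abx. The count of lower members was 24 without CX 1 and 30 to 36 with any other 1 of the 5 libraries left out. Epithelial reads fell alongside, as given above, and with the epithelial score in the fit the median was -0.71 and 4 members were called lower, 2 of them also without it.

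Other housekeeping machinery differed less. Of 50 tested cytosolic ribosomal protein genes, Rpl41 was lower and none higher, at a median of -0.11. Rpl41 was not called when any 1 of the 5 libraries was left out. Of 29 tested proteasome genes 4 were lower, a share below the background of 17.5%, and none higher, at a median of -0.25. Psmb5, a catalytic subunit, had 185 and 174 in CX and 94, 67.7 and 100.1 in littermate_abx, without overlap, and changed by -1.05 (SE 0.26, limma adjusted p = 0.00467). The 4 became 1 without CX 1 and 2 without littermate_abx_491 or littermate_abx_496. Glycolysis and hypoxia genes gave 2 higher and 4 lower of 19, beside a background of 16.5% higher and 17.5% lower. Their median of 0.01 turned negative under 5 scalings. Hexokinases went opposite ways, Hk1 having 141 and 187 in CX and 78.5, 88 and 82.2 in littermate_abx, a change of -0.96 (SE 0.16, limma adjusted p = 0.000192), and Hk3 having 82.8 and 100.2 in CX and 226, 239.7 and 273 in littermate_abx, a change of 1.42 (SE 0.32, limma adjusted p = 0.00239). Aldoa, Tpi1 and Ldha were lower by -0.87, -0.85 and -0.83 on the log2 scale. Without CX 1 the list gave 1 higher and 3 lower.

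Chaperone and heat-shock genes were higher in 12 of 34 tested members, but the treated libraries disagreed among themselves. Hsph1, a partner of HSP70, had 215 and 242 in CX and 913, 1582 and 319 in littermate_abx. littermate_abx_491 stood far above littermate_abx_496, which was close to the controls. Its change of 1.75 (SE 0.47, limma adjusted p = 0.00859) was lost without CX 1 (limma adjusted p = 0.0661) and in a fit of these 2 groups alone (limma adjusted p = 0.135). Hspa5, the BiP chaperone of the endoplasmic reticulum, had 1878 and 2306 in CX and 3768, 3962 and 4535 in littermate_abx, with the treated libraries close together. It changed by 0.97 (SE 0.22, limma adjusted p = 0.0026), lost without CX 1 (limma adjusted p = 0.0509). Hsp90b1, its neighbour in that compartment, had 787 and 900.1 in CX and 1370.2, 1539 and 1664 in littermate_abx and changed by 0.85 (SE 0.18, limma adjusted p = 0.00144). The count of 12 fell to 2 without CX 1, 3 without CX 3, 6 without littermate_abx_490 and 3 without littermate_abx_491, and was 13 without littermate_abx_496. In the unfolded protein response list 5 of 20 tested were higher, beside 16.5% of all tested genes, with 3 of them left without CX 1. Its stress factors Atf4, with 547 and 742 in CX and 1769.8, 1539 and 2102 in littermate_abx, and Ddit3, with 303 and 341 in CX and 1120.3, 933 and 1035 in littermate_abx, changed by 1.49 (SE 0.26, limma adjusted p = 0.00027) and 1.67 (SE 0.29, limma adjusted p = 0.00028).

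Alternative activation genes gave 5 higher and 2 lower of 14 tested, beside a background of 16.5% higher and 17.5% lower. Irf4, a factor of IL-4-driven programmes, had 18.6 and 25.6 in CX and 70.2, 65 and 73.8 in littermate_abx, without overlap, and changed by 1.63 (SE 0.28, limma adjusted p = 0.000231). Clec10a, a galactose-type lectin, had 53.9 and 59.8 in CX and 209, 123 and 247 in littermate_abx and changed by 1.69 (SE 0.31, limma adjusted p = 0.000402), and the receptor gene Il4ra had 363 and 416 in CX and 925, 1027 and 1052 in littermate_abx and changed by 1.36 (SE 0.26, limma adjusted p = 0.000633). Pparg and Socs2 were lower by -1.18 and -1.52 on the log2 scale. Without CX 3 the higher count was 3, and 1 lower member was left without CX 1, CX 3 or littermate_abx_496. In the TGF-beta, growth factor and matrix list 8 of 31 tested were higher and 2 lower, beside the same background. Timp2, a metalloprotease inhibitor, had 622 and 499 in CX and 1534, 1176 and 1863 in littermate_abx and changed by 1.42 (SE 0.23, limma adjusted p = 0.00015). The list's counts were 3 and 0 without CX 1, 5 and 0 without CX 3 or littermate_abx_490, 5 and 2 without littermate_abx_491, and 7 and 0 without littermate_abx_496. Of 24 tested cell cycle genes, Tubb5 was higher and none lower. Its call was lost when any 1 of the 5 libraries was left out, and Mki67 (0.44) and Top2a (0.26) had overlapping groups.

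Markers of other blood cells were low or mixed. Of 29 written T, NK and innate lymphoid markers the table lists 3, and of 21 mast cell and eosinophil markers it lists 1. The T, NK and innate lymphoid markers summed to 0.0121% and 0.0132% of reads in CX and to 0.0189% to 0.0213% in littermate_abx, which do not overlap. Cd4, a co-receptor of T cells that gut macrophages are also known to carry, was their only tested member and had 134 and 136 in CX and 324, 298 and 287 in littermate_abx, a change of 1.16 (SE 0.36, limma adjusted p = 0.0194). The Cd4 call was lost without CX 1, CX 3 or littermate_abx_490. Neutrophil markers (8 of 22 listed) summed to 0.023% to 0.0311% of reads in CX and 0.0182% to 0.0314% in littermate_abx, and B and plasma cell markers (10 of 23) to 0.0922% to 0.201% and 0.1045% to 0.118%. These ranges overlap. Of 4 tested neutrophil markers Csf3r, the G-CSF receptor gene, was higher (1.08) and Cd177, a neutrophil surface glycoprotein that the monocyte list also holds, was lower. The Csf3r call was lost when any 1 of the 5 libraries was left out. Of 8 tested B and plasma cell markers 2 were higher and 1 lower, beside a background of 16.5% higher and 17.5% lower. Monocyte markers gave 3 higher and 4 lower of 14 tested, at a median of -0.38. Plac8 had 440.1 and 595 in CX and 137, 122 and 107.5 in littermate_abx, Cd177 had 105.6 and 62.1 in CX and 6.2, 20.3 and 7.38 in littermate_abx and the calcium-binding S100a6 had 2335 and 2493 in CX and 610.2, 788 and 783 in littermate_abx. All treated libraries were below both controls, by -2.06 (SE 0.50, limma adjusted p = 0.00419), -2.92 (SE 0.44, limma adjusted p = 8.2e-05) and -1.74 (SE 0.28, limma adjusted p = 0.000128). Without CX 1, CX 3 or littermate_abx_490 a single monocyte marker was higher. Dendritic cell markers gave 4 higher and 2 lower of 8 tested. Of stromal, endothelial and glial markers, Col1a1 and Pecam1 were lower of 11 tested, with 1 left without CX 1, littermate_abx_490 or littermate_abx_496 and none without CX 3. The globin genes of red cells, which share reads with near-identical copies, had overlapping groups. The Y-linked Ddx3y had 112 and 138 in CX and 295, 260.1 and 352 in littermate_abx, so all 5 libraries hold male RNA, and it was higher by 1.26 (SE 0.33, limma adjusted p = 0.00608), though not called without CX 1.

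Goblet cell transcripts fell the most of all. The separation of the groups in the 12 lowest genes follows from the rule that chose them. Retnlb, a goblet cell protein known to be induced by gut bacteria, had normalized values of 2359 and 1147 in CX and 86.7, 67.7 and 44.3 in littermate_abx. Every treated library lay far below the lower control, which is -4.67 (SE 0.63, limma adjusted p = 5.11e-05) on the log2 scale. Ang4, an angiogenin-family ribonuclease with antibacterial activity, had 1775 and 1294 in CX and 84.7, 55.5 and 51.6 in littermate_abx and changed by -4.58 (SE 0.95, limma adjusted p = 0.00158). Clca1, a secreted mucus component, had 5882 and 4092 in CX and 393, 349 and 245 in littermate_abx and changed by -3.92 (SE 0.78, limma adjusted p = 0.00108). The mucin gene Muc2 had 4354 and 2152 in CX and 509, 677 and 174 in littermate_abx, with CX 1 well above CX 3 and littermate_abx_496 the lowest. It changed by -2.96 (SE 0.51, limma adjusted p = 0.000297). Reg4, Fcgbp, Tff3, Gsdmc4, Agr2, Mptx1, Spink4 and Zg16 complete the 12 lowest, at -3.79, -3.39, -3.15, -3.13, -3.06, -3.05, -3.04 and -2.99 on the log2 scale.

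In all, 32 of 35 tested epithelial markers were lower and none higher, at a median of -2.15, and 30 to 33 were lower when any 1 of the 5 libraries was left out. The 3 that were not called were Aqp8, whose groups overlapped, and Reg3b and Reg3g, antibacterial lectins that had values of 1.04 and 0.569 in CX and 0, 8.13 and 4.21 in littermate_abx and 3.11 and 1.71 in CX and 1.03, 2.71 and 3.16 in littermate_abx, at or near the floor of 3 reads. The epithelial markers fell by unequal amounts. The 10 markers counted as pan-epithelial lay between -1.78 and -2.20 (median -1.97), and 10 goblet and secretory genes lay between -2.96 and -4.67 (median -3.27). Relative to the mean of the pan-epithelial markers within each library, Retnlb differed by -2.66, Ang4 by -2.57, Clca1 by -1.91 and Reg4 by -1.78. The other goblet and secretory genes differed by -0.96 (Muc2) to -1.38 (Fcgbp) on that scale, where the groups overlapped for Muc2 and Spink4. The 4 absorptive-cell genes were divided, with Car1 at -0.01, Slc26a3 at 0.28, Guca2a at -0.45 and Krt20 at -0.65. These sets were divided by textbook cell type after the genes' values were known, so no test is given for their difference.

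**Figure D4:**
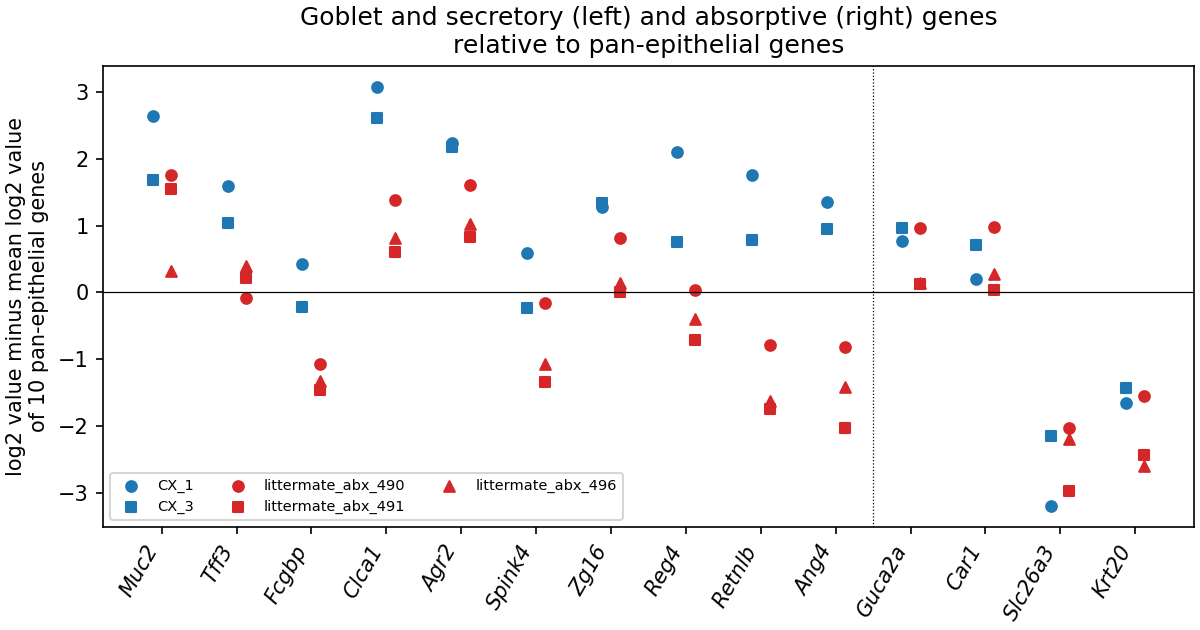
Log2 value of goblet and secretory genes (left of the dotted line) and absorptive genes (right) minus the mean log2 value of 10 pan-epithelial markers in the same library (vertical axis), with 1 point per library. Retnlb and Ang4 lie lower in all 3 littermate_abx libraries than in both CX libraries, by -2.66 and -2.57 on average. Muc2 differs by -0.96 with overlapping groups, and the 4 absorptive genes by 0.28 (Slc26a3) to -0.65 (Krt20).

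Untreated and antibiotic-treated Il10ra-deficient mice were also compared. They were titled IL10R (n = 5, untreated) and IL10R_abx (n = 4, antibiotics in the drinking water), with C57BL/6 mice of the same age and the same sort. That comparison shares no library with littermate_abx against CX. It gave 2020 higher genes (30.6%) and 1803 lower genes (27.3%) by limma adjusted p. Of the genes higher in littermate_abx, 996 were also higher in IL10R_abx, which is 91.0% of the former and 49.3% of the latter. Of those lower, 1060 were shared, 91.7% and 58.8%. The log2 changes correlated at a Pearson r of 0.866 across 6612 genes, which are not independent replicates and share the scaling of the table. List medians can be set side by side. Resident and scavenger-type markers had 1.08 in littermate_abx and 2.78 in IL10R_abx, and NF-kB genes 1.34 and 1.31. Oxidative phosphorylation genes had -0.78 and -0.88, and epithelial markers -2.15 and -2.08. MHC class II genes had 0.22 and 1.13, and glycolysis and hypoxia genes 0.01 and -0.74. Relative to the pan-epithelial markers, the 10 goblet and secretory genes lay between -1.23 (Retnlb) and 0.52 (Reg4) in IL10R_abx against IL10R. On that scale Ang4 was at 0.01, Clca1 at 0.08 and Muc2 at -0.97 there.

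Only 4 genes were called in opposite directions, and 3 of them are named here after their values were seen. Gbp2b, an interferon-inducible guanylate-binding protein, had 92.2 and 184 in CX and 62, 70.4 and 55.8 in littermate_abx, and lay between 126 and 174 (median 147) in IL10R and between 187 and 387 (median 257) in IL10R_abx. It was lower in littermate_abx and higher in IL10R_abx, with CX 3 well above CX 1. St3gal4, a sialyltransferase, had 116 and 123 in CX and 42.3, 44.7 and 47.4 in littermate_abx and lay between 14.4 and 39 (median 24.3) in IL10R and between 23.7 and 65.8 (median 50.6) in IL10R_abx. Tlr1 was lower by -0.60 here and higher by 0.35 there, on the log2 scale. Without CX 3 none of these 3 was called lower here (limma adjusted p = 0.242 for Gbp2b, 0.083 for St3gal4 and 0.222 for Tlr1), and without CX 1 St3gal4 was not (limma adjusted p = 0.0708). Tlr1 was also not called without littermate_abx_491 (limma adjusted p = 0.06). Of the 4, only Gbp2b also passed the test of the difference.

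The difference between both antibiotic comparisons was tested directly, gene by gene. It passed for 7 genes (0.106% of 6612), all of them with a smaller or more negative change in littermate_abx against CX, while 699 had an unadjusted p under 0.05. By edgeR 24 genes passed and by DESeq2 100, with these 7 among them in each case. Amica1, an adhesion protein of the junctional adhesion family, had 420.4 and 532 in CX and 136, 115 and 104 in littermate_abx, and lay between 124 and 178 (median 139) in IL10R and between 102 and 159.5 (median 137) in IL10R_abx. Of these 4 groups CX alone was high, and the difference of differences was -1.86 (SE 0.35, limma adjusted p = 0.0426). Rab11fip5, an adaptor of recycling endosomes, had 174 and 179 in CX and 371, 389 and 395 in littermate_abx and lay between 57.2 and 93.3 (median 65.8) in IL10R and between 346 and 400.5 (median 382) in IL10R_abx. Here both antibiotic groups overlapped and untreated Il10ra-deficient libraries were the lowest, a difference of differences of -1.31 (SE 0.24, limma adjusted p = 0.0426).

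The same arrangement held for Fcgrt, Hfe, Fcgr3 and Batf3. Fcgrt, which encodes the neonatal Fc receptor, had 382 and 406 in CX and 674, 698 and 787 in littermate_abx and lay between 117 and 204 (median 132) in IL10R and between 581 and 771 (median 677) in IL10R_abx, a difference of differences of -1.39 (SE 0.26, limma adjusted p = 0.0426). Hfe, an MHC class I-like regulator of iron, had 154 and 165 in CX and 193, 209.9 and 245 in littermate_abx and lay between 45.9 and 94.1 (median 57.7) in IL10R and between 197 and 239 (median 233) in IL10R_abx, a difference of -1.42 (SE 0.27, limma adjusted p = 0.0426). In each the antibiotic groups overlapped each other. Fcgr3, a low-affinity Fc receptor, and Batf3, a factor of cross-presenting dendritic cells, gave -1.28 (SE 0.23, limma adjusted p = 0.0426) and -1.11 (SE 0.21, limma adjusted p = 0.0426). For Gbp2b the value was -1.88 (SE 0.36, limma adjusted p = 0.0426). The 7 calls depend on the libraries: none was left without CX 3, any littermate_abx library, IL10R_27, _32, _61 or _67, or IL10R_abx_160, _161 or _497. Without CX 1 there was 1 call, without IL10R_abx_495 there were 15 and without IL10R_68 there were 73.

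**Figure D5:**
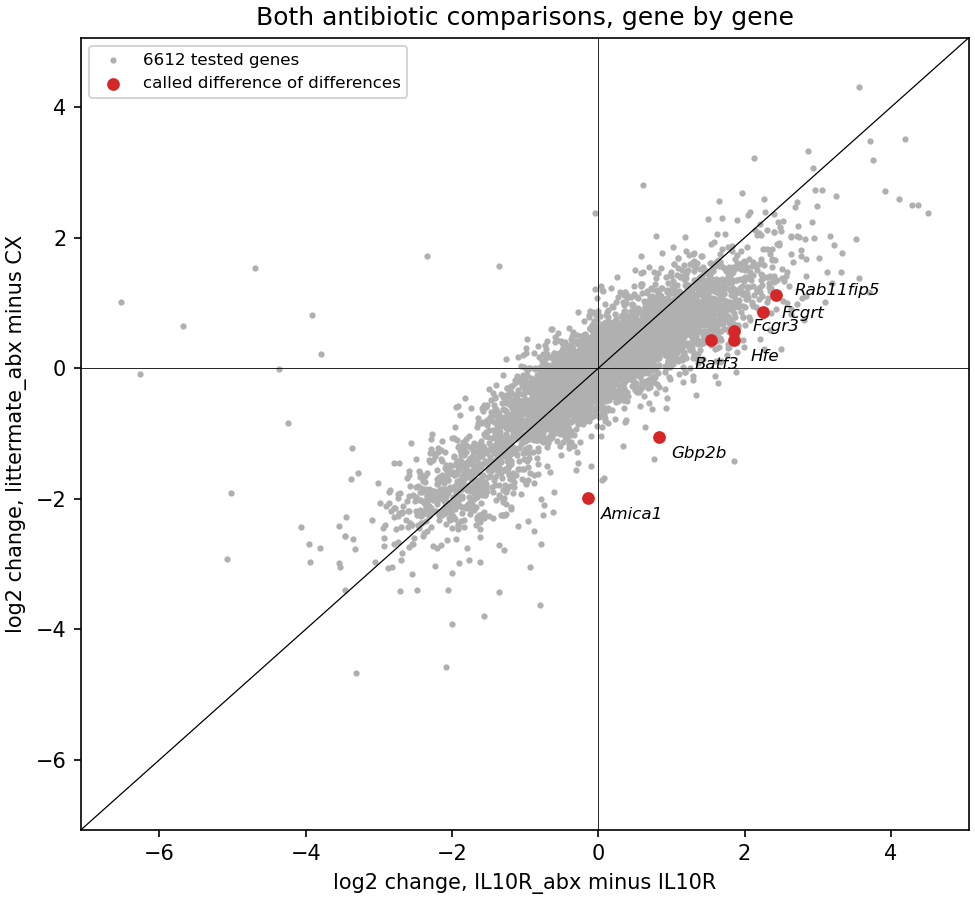
Log2 change of littermate_abx against CX (vertical axis) and of IL10R_abx against IL10R (horizontal axis), with 1 point for each of 6612 tested genes and the line of equal change. The 7 genes with a called difference of differences are marked and all lie under the line, from Gbp2b at -1.88 to Batf3 at -1.11.

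By limma no gene passed with a positive difference of differences, while 213 had an unadjusted p under 0.05. Positive calls were made by DESeq2 (11), under quantile normalization (3), among genes above the median level (2), without a filter on low values (1), in the fit of the compared groups alone (1) and without IL10R_68 (13), and none by edgeR. Among the 10 with the smallest p in that direction were Rpl29, Ppfia4, Tac1, Wasl, Nos2, Sorl1, Cd177, Clca4b and Lgr4. Ppfia4, for instance, lay between 93.3 and 182 (median 115) in IL10R and between 137 and 233 (median 184) in IL10R_abx, and its difference of differences was 2.19 (SE 0.46, limma adjusted p = 0.0683). Cd177 lay between 225 and 542 (median 436) in IL10R and between 8.48 and 18.8 (median 9.64) in IL10R_abx, a difference of 2.16 (SE 0.54, limma adjusted p = 0.102), so it fell in both comparisons and by less in littermate_abx against CX. Tac1, Nos2 and Clca4b entered the test only through the untreated Il10ra-deficient libraries, where they were high, and no difference is given for them.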

How the data were processed

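Messenger RNA was pulled down on oligo-dT beads, linearly amplified by transcription in vitro and cut into short pieces before sequencing, per the labels' protocols. The submitters' processing notes name bcl2fastq, HISAT 0.1.6 and HOMER as tools and mm9 as the build. For the role of each tool, the gene models, strandedness and the scaling step, the answer is not given in the sources used here. The authors deposited a scaled signal per gene and library, which is a whole number of reads times a constant of that library: 100% of values were whole reads within a tolerance of 0.01 read. Reads per library of the table ranged from 747046 to 2775974, and counting intervals would cover counting error only. The table held 8816 named genes, and 15605 lines without a gene name were left out. Replicates of a group differed by more than counting noise, with a chi-square per degree of freedom of 6.55 in CX and 4.41 to 7.01 in littermate_abx, so all were kept as separate libraries.

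All 18 libraries of the 5 groups entered 1 limma fit (limma 3.58.1, R 4.3.3) of log2(value + 0.997) with robust variances and a trend of variance on level, which understates changes of low genes. Genes with a mean at or under 40.4, the lower quartile, were left out, leaving 6612. Called means a Benjamini-Hochberg adjusted p under 0.05 over these genes. Every adjusted p printed is two-sided and from limma, except where DESeq2 is named. Alternatives were other pseudocounts, filters and scalings, a fit of the compared groups alone, each library left out, and edgeR 4.0.16 and DESeq2 1.42.0 on the recovered reads, which called 2343 and 2477 genes. The script was first tested on simulated data.

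Members and gene lists were chosen with earlier results of these data known, so lists are described by counts and medians without a test. Named genes are Il10ra, Cx3cr1, Csf1r, Il10, Il1b, Tnf, Nos2, Reg3b and Reg3g whatever their values, the 12 called genes with the highest and the 12 with the lowest change (level over the median, no overlap), for each list at most 3 called members ranked by adjusted p, and the 5 extreme called differences of differences in each direction or, failing that, the 10 with the smallest p. Predicted genes and antigen receptor segments were left out, and some genes that these rules name are not reported here. Near-identical genes (globins, H2-Q7, Hspa1a and Hspa1b) may share reads. Promoter sequences are from RefSeq on GRCm38.p6, a later build than mm9, and were matched by symbol.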

Additional observations from a re-analysis of the deposited data

Results flagged for a closer look

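The 7 genes whose change between antibiotic-treated and untreated libraries differed between the littermate_abx and CX pair and the IL10R_abx and IL10R pair are listed for a closer look, each by limma with Benjamini-Hochberg adjustment. The differences of differences on the log2 scale were -1.88 (SE 0.36, limma adjusted p = 0.0426) for Gbp2b, -1.86 (SE 0.35, limma adjusted p = 0.0426) for Amica1, -1.42 (SE 0.27, limma adjusted p = 0.0426) for Hfe, -1.39 (SE 0.26, limma adjusted p = 0.0426) for Fcgrt, -1.31 (SE 0.24, limma adjusted p = 0.0426) for Rab11fip5, -1.28 (SE 0.23, limma adjusted p = 0.0426) for Fcgr3 and -1.11 (SE 0.21, limma adjusted p = 0.0426) for Batf3. For Fcgrt, Hfe, Rab11fip5, Fcgr3 and Batf3 the libraries of both antibiotic groups overlapped, and the untreated Il10ra-deficient libraries lay below the CX libraries. Over the alternatives other than the epithelial score the value for Rab11fip5 ranged from -1.41 to -1.24 and that for Gbp2b from -2.37 to -1.38, with each of the 7 passing in 11 to 13 of 26 fits. The labels do not state where the CX mice, or the mice of the IL10R and IL10R_abx groups, came from, so the part of origin in the difference cannot be told apart.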

How the results depend on the processing

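The count of genes that differed between littermate_abx and CX stayed between 1785 and 2729 under other pseudocounts, filters, scalings and tools, against 2250 as reported. It was 1325 to 2058 with each library left out, and 1191 of the genes changed at least 2-fold. With the epithelial score, chosen after seeing the data as were the settings for IL10R_abx against IL10R, it was 139, and the count for IL10R_abx against IL10R was 666 in place of 3823. The 7 called differences of differences became 18 among genes above the median level, 16 with the compared groups alone, 0 under total-count scaling, 20 under quantile normalization, 24 by edgeR, 100 by DESeq2, 0 with the epithelial score, and 0 to 73 with each library left out. With only IL10R_abx_495 and IL10R_abx_497 there were 2 calls, neither of them among the 7. The cause was not tested. Of 118 named genes 109 were called and 79 of these under all 16 other settings without the score, and none of them reversed there. With the epithelial score in the fit only 8 of the 109 were still called. With the epithelial score 14 of the called genes turned direction, at -0.13 for Csf1r, 0.28 for Ang4, 1.38 for Clca1, 0.30 for Mptx1, 1.87 for Muc2, -3.23 for Ifitm3, 0.50 for Gbp2b, -2.01 for Iigp1, 0.063 for Aldoa, -1.02 for Tubb5, 0.49 for S100a6, 0.90 for Sdc1, 0.98 for Col1a1 and 0.73 for Gp1bb. Of the named genes not called, Il10ra (0.84), Cx3cr1 (-0.10) and Il1b (2.87) also changed sign with it. The sign of Reg3b changed too, but it had at most 6 reads in any of the 5 libraries, so no value is given. In the lists of lipid mediators, alternative activation, TGF-beta and matrix, and the unfolded protein response no member was called with the score. Il10ra, Cx3cr1 and Tnf were called with the compared groups alone and Tnf by DESeq2. No paired analysis was possible because the compared groups share no replicate numbers. Depth limits genes near 3 reads per library, such as Nos2, Reg3b and Reg3g.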

Other observations

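Further gene families, chosen by their names after values had been seen and so given without a test, differed in the same table. Among all tested genes 16.5% were higher and 17.5% lower. Regulators of membrane traffic had more higher than lower members in littermate_abx. Of 14 tested Tbc1d genes, which inactivate Rab GTPases, 7 were higher and 1 lower (median log2 change 0.55), and of 8 Dennd genes, which activate them, 5 were higher and 1 lower (1.12). Sorting nexins were higher in 6 of 18 members and lower in none (0.51). Subunits of the proton pump were higher in 9 of 17 members and lower in 1 (0.66). Mitochondrial ribosomal proteins, which translate respiratory chain subunits, were lower in 22 of 61 members and higher in none (-0.56), and Timm and Tomm genes of mitochondrial protein import were lower in 5 of 19 and higher in none (-0.43). Of 47 tested Zfp genes, named for zinc fingers, 8 were higher and none lower (0.27), a share of higher members near the background.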
